A study of Homo sapiens with 6 samples.

Results

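Splicing regulators were examined in MH7A cells, an established synovial fibroblast line from rheumatoid arthritis that carries a viral large T antigen. The set held 36 genes of the 19475 symbols in the deposited table: 10 SR proteins, the 2 TRA2 proteins, 4 CLK and 2 SRPK kinases, 10 hnRNPs with PTBP1, SAFB and SAFB2, the cold-inducible RNA-binding proteins RBM3 and CIRBP, and RBM39, SON and SRRM2. They were chosen by symbol, as factors and kinases of splicing control, with earlier results of these data known. Each symbol had 1 row in the table. Cells of all 6 libraries received TNFα at 10 ng/ml. In TNF replicates 2, 8 and 14 (n = 3) it was the only treatment, and in LED replicates 4, 6 and 10 (n = 3) a 630 nm LED was also applied for 15 min, 3 times. The comparison asks what differed with light in cells given TNFα. Neither cells without TNFα nor a warmed control are among the samples, so light and any warming by the lamp cannot be told apart.

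SR proteins bind exonic enhancers and recruit the spliceosome, and hnRNPs often act against them by binding silencers. SRPK kinases phosphorylate the arginine-serine domain of SR proteins in the cytoplasm, which sends them into the nucleus, and CLK kinases phosphorylate them further there and release them from nuclear speckles. Heat stress is known to dephosphorylate SR proteins and to disturb splicing, whereas RBM3 and CIRBP are known to be induced by mild cold and lowered by warmth. Many SR protein and CLK genes also control their own mRNA by splicing. The deposited values were counts per gene, so transcript levels were compared here, and neither splicing nor phosphorylation was measured.

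Deposited totals ranged from 86000253 to 108074289 estimated counts, and all 36 members passed the filter on low counts. TNF replicate 8 stood apart within its group. It was the lowest of the 6 libraries for 15 members and the highest for 10, and the same was true of 30.5% and 28.7% of all tested genes. LED replicate 6 was the highest for 16 members (25.2% of all tested genes). Of the heat shock and chaperone genes listed for context, 19 of 20 were called higher with LED and 0 lower. Of the G2/M genes 15 of 20 were called lower and 0 higher. Over all tested genes 2.44% were called higher and 2.73% lower. Both lists were chosen with earlier results of these data known, so their counts are description only. Fibroblast markers took 3.65% to 4.54% of all CPM (counts scaled to a common library size), while PRG4, the lubricin of the synovial lining, had at most 0.0787 CPM. Of the 15 tested fibroblast markers 0 were called, the lowest p being that of COL1A1 (log2 -0.42, edgeR adjusted p = 0.200). Of 18 markers of other cell types 9 were too low to be tested, and CD3E, CDH5 and ADIPOQ were listed at 0 in every library. The summed level of the 18 markers was 175 to 233 CPM with TNF and 210 to 272 CPM with LED. Most of it came from CD68 (92.2 to 153 CPM over the 6 libraries), HBB (21.7 to 59.9 CPM) and KRT18 (28.4 to 46.2 CPM). The part of these 18 markers in any result was not tested. COL2A1, a cartilage collagen, was the only marker of the 18 called higher, from 0 in every TNF library to 0.353 to 0.897 CPM.

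Promoter letters are shown first for the cold-inducible members RBM3 and CIRBP and for the 1 member with a full heat shock element. RefSeq supplied windows for 32 of the 36 members (GRCh38.p14, the 250 bases before the annotated start). Only the first listed start of each gene was used, and any other start was not searched. Only bases outside annotated exons, or at most 30 bases around a motif, are printed. Capitals mark letters of the heat shock element, to which heat shock factors bind. The search used GAANNTTC or TTCNNGAA for the shorter form and GAANNTTCNNGAA or TTCNNGAANNTTC for the longer form, on both strands, and every match of the longer form holds matches of the shorter one. The third stretch holds a further RBM3 match nearer the start, and HSPA6, a stress-inducible HSP70 gene outside the set, is shown for comparison.
RBM3, plus strand, chrX:48574234-48574448: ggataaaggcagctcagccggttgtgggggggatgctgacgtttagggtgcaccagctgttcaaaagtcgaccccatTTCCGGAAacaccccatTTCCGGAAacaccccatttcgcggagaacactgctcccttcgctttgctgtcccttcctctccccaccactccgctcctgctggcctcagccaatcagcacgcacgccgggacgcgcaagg
CIRBP, plus strand, chr19:1269082-1269265: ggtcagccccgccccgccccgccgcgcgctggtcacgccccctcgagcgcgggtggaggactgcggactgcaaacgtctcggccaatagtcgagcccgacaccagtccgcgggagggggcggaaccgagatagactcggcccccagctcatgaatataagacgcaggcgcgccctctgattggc
RBM3, plus strand, chrX:48574439-48574468: acgcgcaagggGAACGTTCcgggacgttct
HNRNPA2B1, minus strand, chr7:26200764-26200793: agtggggggGAAGGTTCTAGAAaagcggcg
HSPA6, plus strand, chr1:161524457-161524486: gcggaaaggTTCGCGAAAGTTCgcggcggc

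The longer form was in 1 of the 32 member windows (3.12%), that of HNRNPA2B1, so this share rests on 1 gene. It was in 47 of 14783 windows of the table's symbols (0.318%) and in 32 of 10810 windows of tested genes (0.296%). All members are tested genes. The shorter form was in 3 member windows (9.38%), those of RBM3, HNRNPA2B1 and HNRNPC, against 9.83% of all windows and 8.86% of those of tested genes. In 19 windows of the heat shock list the longer form was found in 3 and the shorter in 7 (36.8%). TCCCCGCC, the letters of the mild cold responsive element described for CIRBP, was in 4 member windows (12.5%), those of HNRNPC, HNRNPK, HNRNPU and PTBP1. The same letters were in 10.7% of all windows and in 12.6% of those of tested genes. TCCCCGCC was in neither the RBM3 nor the CIRBP window. TGACGTCA, the cyclic AMP response element, was in no member window, in 2.30% of all windows and in 2.8% of those of tested genes. These matches describe letters only. The SAFB and SAFB2 start sites lay head to head 307 bases apart, so 194 bases belonged to both windows.

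Members differed widely in level. Per kilobase of principal transcript, HNRNPC (370 CPM per kb), which packages nascent transcripts, and HNRNPK (247 CPM per kb), a poly(C)-binding hnRNP, led the TNF libraries. HNRNPA2B1 followed at 191 CPM per kb and RBM3 at 177. CLK4, CLK2, SRPK2 and CLK1 were at the other end, with CLK4 lowest at 3.38 CPM per kb, CLK2 at 9.49, SRPK2 at 11.9 and CLK1 at 14.96. With all annotated exons as the length the order at the top changed. HNRNPK came first, then HNRNPA1, RBM3 and HNRNPC, and HNRNPA2B1 was at place 7, while CLK4 was again last. HNRNPC and HNRNPK have 9 and 5 named pseudogenes, and HNRNPA2B1 shares exonic bases with CBX3, so their levels are uncertain.

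No member passed the test with LED. At an adjusted p below 0.05, 5.17% of all 13794 tested genes were called in edgeR's quasi-likelihood test, 2.44% higher and 2.73% lower, against 0 of the 36 members. At an unadjusted p below 0.05 there were 8 members (22.2%), close to the 22.7% of all tested genes. For 6 members every LED library was above every TNF library and for 3 every one was below (25.0% of members together). This separation held for 32.4% of all tested genes, 16.2% in each direction. The log2 fold change was positive for 23 members and negative for 13. Its median was 0.14 (0.01 over all tested genes), and its median absolute size 0.20 (0.305 over all tested genes). The 95% interval of the log2 fold change lay within 2-fold in either direction for 30 of the 36 members and for 8251 of the 13794 tested genes. Among members it reached past 2-fold for SRSF11, CLK1, CLK4, HNRNPH1, CIRBP and RBM39, so the intervals of these 6 include differences of over 2-fold. With DESeq2, SON, SRRM2, RBM39 and HNRNPH1 were called higher and CIRBP lower (5 members, where that tool called 12.7% of all genes, 6.34% higher and 6.37% lower), and limma-voom called 0 (4.78% of all genes).

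**Figure D1:**
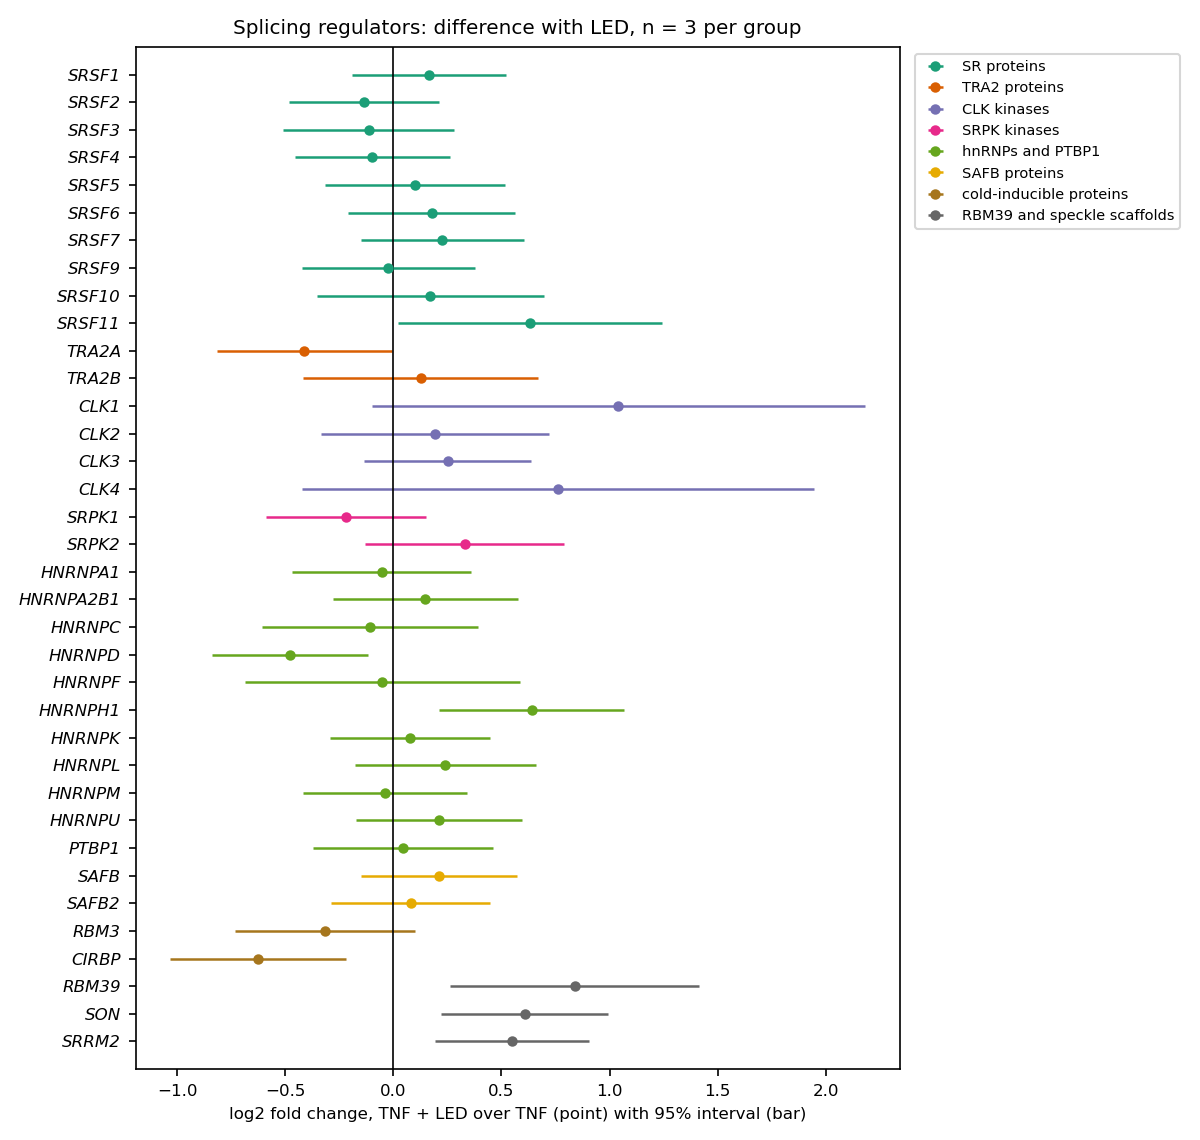
Log2 fold change of each member with LED (x axis; positive values are higher with LED), with the 95% interval from the edgeR fit as a bar, n = 3 per group. Genes are coloured by role. RBM39, SON, SRRM2, HNRNPH1 and SRSF11 lie to the right of 0 with their whole bars, CIRBP, HNRNPD and TRA2A to the left, and the widest bars are those of CLK1 and CLK4.

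RBM39, SON and SRRM2, which hold or associate with nuclear speckles, were higher in every LED library than in every TNF library. The same was true of 16.2% of all tested genes, and none of the 3 passed over all genes. SON, a speckle scaffold needed to splice weak introns, was at 315, 263 and 347 CPM with TNF (replicates 2, 8 and 14, the order used throughout) and at 446, 496 and 467 CPM with LED (replicates 4, 6 and 10). The LED libraries lay close together, and the nearest libraries of the groups were TNF replicate 14 and LED replicate 4. The log2 fold change was 0.61 ± 0.17 (SE; 95% interval 0.22 to 0.99; edgeR adjusted p = 0.0750). SRRM2, a large speckle scaffold, had 547, 499 and 563 CPM with TNF and 761, 820 and 772 CPM with LED. The lowest LED library was well above the highest TNF library, at a log2 fold change of 0.55 ± 0.16 (adjusted p = 0.0797). RBM39, an SR-related partner of the U2AF splicing factor, had 152, 94.2 and 154 CPM with TNF and 206, 314 and 196 CPM with LED. TNF replicate 8 was low and LED replicate 6 high, and the log2 fold change of 0.84 ± 0.26 (adjusted p = 0.0913) was 0.64 without the former and 0.59 without the latter. SON shares exonic bases with GART and DONSON, and SRRM2 with ELOB, so part of their counts could belong to a neighbour if strand was not used in counting.

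**Figure D2:**
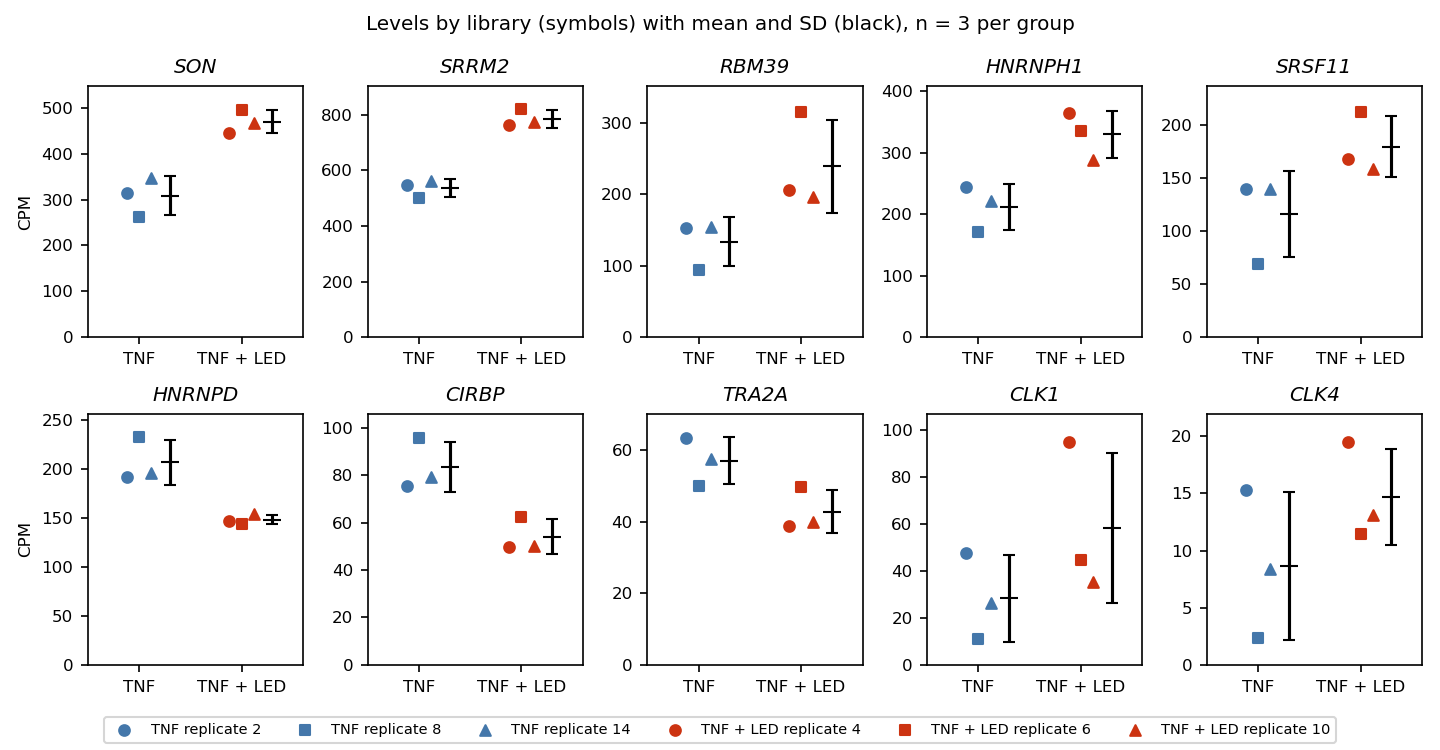
Level in CPM (y axis, from 0) of 10 members in each library, with TNF in blue and TNF plus LED in red; symbols mark the replicates, and black bars give the mean and SD of 3 libraries. In SON, SRRM2, RBM39, HNRNPH1 and SRSF11 all LED libraries are above the TNF libraries, in HNRNPD, CIRBP and TRA2A all are below, and in CLK1 and CLK4 the groups overlap. These 10 were picked with their values in view. Groups did not overlap for 25% of all 36 members and for 32.4% of all tested genes.

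Of the 10 SR proteins none passed, and SRSF7 and SRSF11 had groups that did not overlap (32.4% of all tested genes). The log2 fold change was positive for 6 SR proteins and negative for 4, and their median was 0.13. SRSF1, the founding SR protein, had 278, 259 and 247 CPM with TNF and 286, 318 and 276 CPM with LED, and the groups overlapped (0.17 ± 0.16, 95% interval -0.19 to 0.52). SRSF2, a speckle-resident SR protein, leaned the other way with 250 ± 15.1 and 228 ± 12.2 CPM (SD, n = 3 each; log2 -0.14). SRSF3 and SRSF4 were at -0.11 and -0.10, SRSF9 at -0.02, SRSF5 at 0.10, and SRSF6, SRSF10 and SRSF7 at 0.18, 0.17 and 0.23. SRSF10, the splicing repressor that is dephosphorylated in heat shock, had 106, 62.3 and 109 CPM with TNF and 88.8, 114 and 109 CPM with LED. Its sign turned to -0.05 without TNF replicate 8. SRSF11, a U2 snRNP-associated SR protein, had 140, 69.1 and 139 CPM with TNF and 168, 212 and 159 CPM with LED. All LED libraries were above, at a log2 fold change of 0.63 ± 0.27 (adjusted p = 0.205), which was 0.36 without TNF replicate 8. SRSF7 was the other SR protein with groups that did not overlap (107 ± 6.59 and 125 ± 16.3 CPM, adjusted p = 0.468).

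TRA2A and TRA2B, SR-like activators that bind GAA-rich exons, differed in sign. TRA2A had 63.2, 50.1 and 57.6 CPM with TNF and 38.8, 49.7 and 39.9 CPM with LED. The groups were apart only by the small gap between TNF replicate 8 and LED replicate 6, and the log2 fold change was -0.41 ± 0.18 (adjusted p = 0.210). TRA2B had 97.7, 146 and 99.2 CPM with TNF and 96.7, 161 and 116 CPM with LED, with overlapping groups (0.13 ± 0.24).

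The CLK kinases varied widely between replicates, with a coefficient of variation of 65.0% for CLK1 and 74.6% for CLK4 over the TNF libraries, and none passed. CLK1 was at 47.6, 11.0 and 26.1 CPM with TNF and at 94.6, 44.4 and 35.3 CPM with LED. The groups overlapped because TNF replicate 2 was above LED replicates 6 and 10. Its log2 fold change of 1.04 ± 0.51 was the largest of the set, with a 95% interval from -0.10 to 2.18 (adjusted p = 0.263). It was 0.66 without TNF replicate 8, 0.51 without LED replicate 4 and 1.63 without TNF replicate 2. CLK4, the closest relative of CLK1, followed the same order of libraries within the TNF group, with 15.3, 2.36 and 8.35 CPM, and had 19.5, 11.5 and 13.1 CPM with LED (0.76 ± 0.53, adjusted p = 0.436). Its value was 0.31 without TNF replicate 8, 1.44 without TNF replicate 2 and 0.51 without LED replicate 4. CLK2 was also lowest in TNF replicate 8 (24.6, 13.3 and 17.2 CPM with TNF, against 23.2, 19.98 and 19.8 CPM with LED). CLK3 was not: it had 38.7, 45.6 and 40.7 CPM with TNF and 50.4, 55.3 and 43.1 CPM with LED (0.25 ± 0.17). The cytoplasmic kinases SRPK1 and SRPK2 leaned apart, at -0.22 ± 0.16 and 0.33 ± 0.20, with overlapping groups and adjusted p of 0.477 and 0.381. SRPK2 had 50.1, 33.4 and 48.5 CPM with TNF and 60.4, 47.6 and 57.9 CPM with LED. Its log2 fold change was 0.16 without TNF replicate 8.

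**Figure D3:**
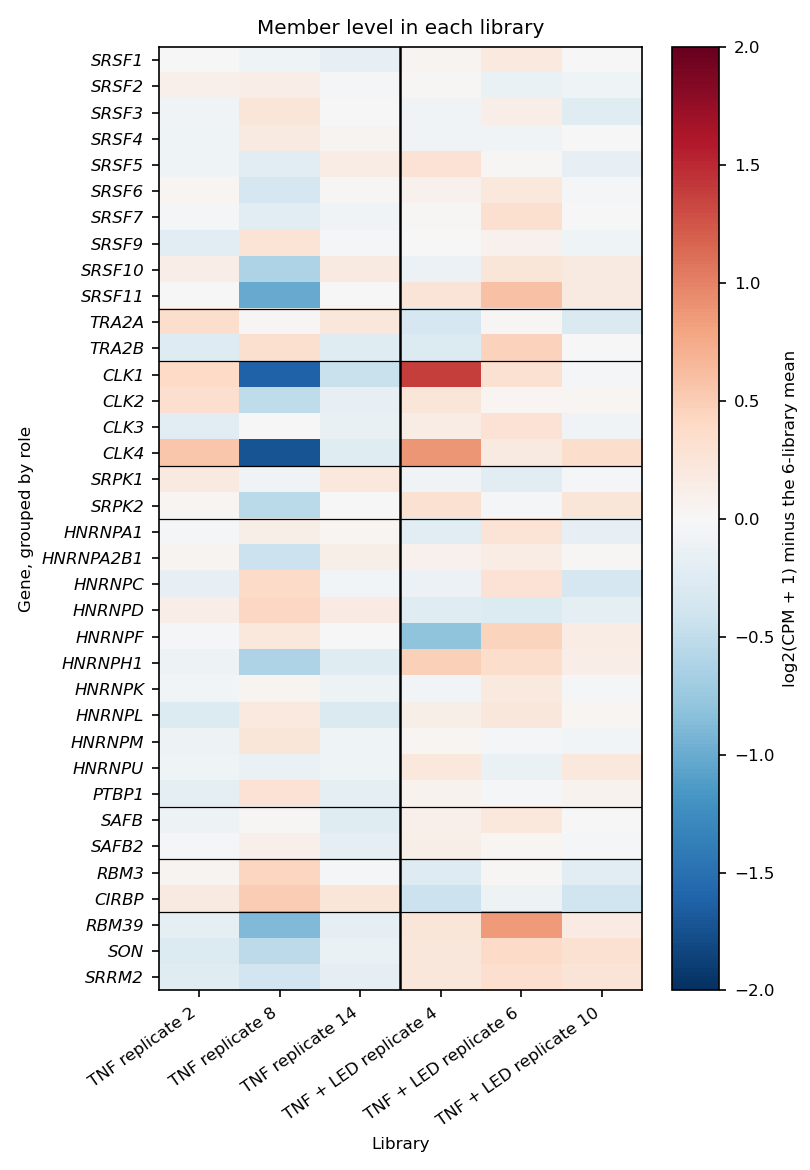
Deviation of each member (rows, grouped by role) from its 6-library mean of log2(CPM + 1) in each library (columns); red is above and blue below the mean. TNF replicate 8 is the deepest blue for CLK1, CLK4, SRSF11 and RBM39 and red for RBM3 and CIRBP, LED replicate 4 is the reddest for CLK1, and HNRNPF is the deepest blue in LED replicate 4.

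Of the 10 hnRNPs and PTBP1, 2 had non-overlapping groups, in opposite directions, where 32.4% of all tested genes had such groups. HNRNPH1, which binds G runs, had 244, 170 and 221 CPM with TNF and 365, 336 and 289 CPM with LED. Every LED library was above every TNF library, at 0.64 ± 0.19 (adjusted p = 0.0867). HNRNPD, also known as AUF1 for its role in the decay of AU-rich mRNAs, had 192, 233 and 196 CPM with TNF and 147, 144 and 154 CPM with LED. Every LED library was below, with a log2 fold change of -0.48 ± 0.16 (adjusted p = 0.118). The other 8 hnRNPs and PTBP1, a repressor that binds pyrimidine tracts, ranged from HNRNPC at -0.11 to HNRNPL at 0.24, with overlapping groups. HNRNPA1, a well-known splicing silencer protein, had 659 ± 35.7 and 635 ± 120 CPM (log2 -0.05, 95% interval -0.47 to 0.36), and 75 named pseudogenes make its count uncertain. HNRNPA2B1 had 667 ± 130 and 739 ± 32.3 CPM (log2 0.15, adjusted p = 0.695). HNRNPK had 727 ± 41.2 and 767 ± 77.6 CPM, HNRNPM 234 ± 33.4 and 228 ± 8.02 CPM and PTBP1 384 ± 76.4 and 396 ± 16.7 CPM. HNRNPF had 118 CPM in LED replicate 4, against 280 and 230 CPM in LED replicates 6 and 10 and 203 to 240 CPM with TNF. Its log2 fold change of -0.05 was 0.25 without that library. SAFB and SAFB2, scaffold attachment factors that are known to enter nuclear stress bodies in heated cells, were at 0.21 ± 0.16 and 0.08 ± 0.16, with overlapping groups. SAFB had 95.2, 104 and 86.8 CPM with TNF and 109, 118 and 103 CPM with LED.

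HNRNPH1 is the member with non-overlapping groups whose whole promoter window lay outside annotated exons, and it is printed for that reason. This window, that of the first listed start, held none of the motifs searched, and any other start of the gene was not searched.
HNRNPH1, minus strand, chr5:179634785-179635034: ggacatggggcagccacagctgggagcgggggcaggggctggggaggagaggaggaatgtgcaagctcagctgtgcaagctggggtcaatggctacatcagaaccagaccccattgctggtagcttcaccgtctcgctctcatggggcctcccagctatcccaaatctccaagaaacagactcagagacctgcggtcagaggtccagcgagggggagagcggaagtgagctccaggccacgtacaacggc

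The cold-inducible pair was lower with LED on average, without passing over all genes. CIRBP was at 75.6, 95.6 and 79.4 CPM with TNF and at 49.6, 62.5 and 50.3 CPM with LED. No LED library reached a TNF library, and the log2 fold change was -0.63 ± 0.18 (95% interval -1.03 to -0.22, adjusted p = 0.0797). Across 14 alternatives it lay between -0.74 and -0.52. RBM3 had 352, 459 and 337 CPM with TNF and 285, 344 and 292 CPM with LED. LED replicate 6 lay above TNF replicate 14, so the groups overlapped. The log2 fold change was -0.32 ± 0.19 (adjusted p = 0.352), and it lay between -0.41 and -0.17 across the alternatives, the smallest without TNF replicate 8. In both genes TNF replicate 8 was the highest library and LED replicate 6 the highest of its group.

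TNF replicate 8 touched several of these values. The median deviation of the CLK kinases from their 6-library mean was -1.06 there, against 0.37 and -0.20 in TNF replicates 2 and 14, and that of the 20 G2/M genes was 0.91, against 0.21 and 0.46. Without both TNF replicate 8 and LED replicate 6, an alternative chosen after the data were seen, edgeR called 7 members: HNRNPL, RBM39, SON and SRRM2 higher and TRA2A, HNRNPD and CIRBP lower (12% of all genes were called in that fit, 5.51% higher and 6.54% lower). In that fit of 2 against 2 libraries CIRBP was at -0.63 and TRA2A at -0.62, HNRNPD at -0.36, SON and SRRM2 at 0.47 each and HNRNPL at 0.37. RBM39 was at 0.39 and SRSF11 at 0.23, both below 0.5 times their log2 fold change over all 6 libraries, and HNRNPH1 at 0.49 had an adjusted p of 0.0556. With TNF replicate 8 alone left out edgeR called none of the members (3.85% of all genes).

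Other genes of splicing control were read against the background of all tested genes, of which 2.44% were called higher, 2.73% lower and 22.7% had an unadjusted p below 0.05. Among core spliceosome genes 1 of 61 was called higher, and among RS-domain and speckle genes outside the set 1 of 29 tested. Among other hnRNPs 1 of 19 was called higher, and among other splicing regulators 1 of 31 tested. These shares rest on 1 gene each, and 0 genes of these lists were called lower. In the same order, 10 of the 61, 8 of the 29, 3 of the 19 and 6 of the 31 had an unadjusted p below 0.05. Of 21 tested kinases, phosphatases and importins of SR proteins 0 were called (6 at an unadjusted p below 0.05), the lowest adjusted p being 0.0954 for AKT1 (log2 -0.59), a kinase upstream of SRPK1, and 0.0962 for DYRK3 (log2 0.88), a kinase that dissolves speckles in mitosis. Of 15 genes of the exon junction complex and nonsense-mediated decay 0 were called (1 at an unadjusted p below 0.05), with SMG6, the endonuclease of that decay, at -0.50 (adjusted p = 0.201). RSRP1, an RS-rich protein, rose from 21.7, 5.01 and 9.505 CPM to 45.1, 43.7 and 38.3 CPM (log2 1.81 ± 0.44, adjusted p = 0.0475). MATR3, a nuclear matrix protein that represses exons, rose from 252 ± 73.3 to 510 ± 60.3 CPM (1.02 ± 0.24, adjusted p = 0.0451). TARDBP, which encodes TDP-43, rose from 163 ± 6.33 to 276 ± 41.0 CPM (0.76 ± 0.17, adjusted p = 0.0408), and PRPF38A, a component of the precatalytic spliceosome, from 26.1 ± 3.26 to 42.3 ± 2.45 CPM (0.70 ± 0.17, adjusted p = 0.0475). Each of these calls was lost in most single-library omissions: TARDBP and PRPF38A in all 6 (up to 0.162 and 0.157), RSRP1 in all except that of TNF replicate 2 (up to 0.181), and MATR3 in all except that of TNF replicate 8 (up to 0.157). The RS-domain and speckle list had a median log2 fold change of 0.44, with 24 of 29 genes positive, and the core spliceosome 0.11, with 47 of 61 positive. The median deviation of the former list was 0.0079, -0.55 and -0.041 in the TNF libraries and 0.12, 0.49 and 0.11 in the LED libraries, so the groups lay closer in the 4 libraries other than TNF replicate 8 and LED replicate 6. Over all tested genes 50.8% were positive.

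**Figure D4:**
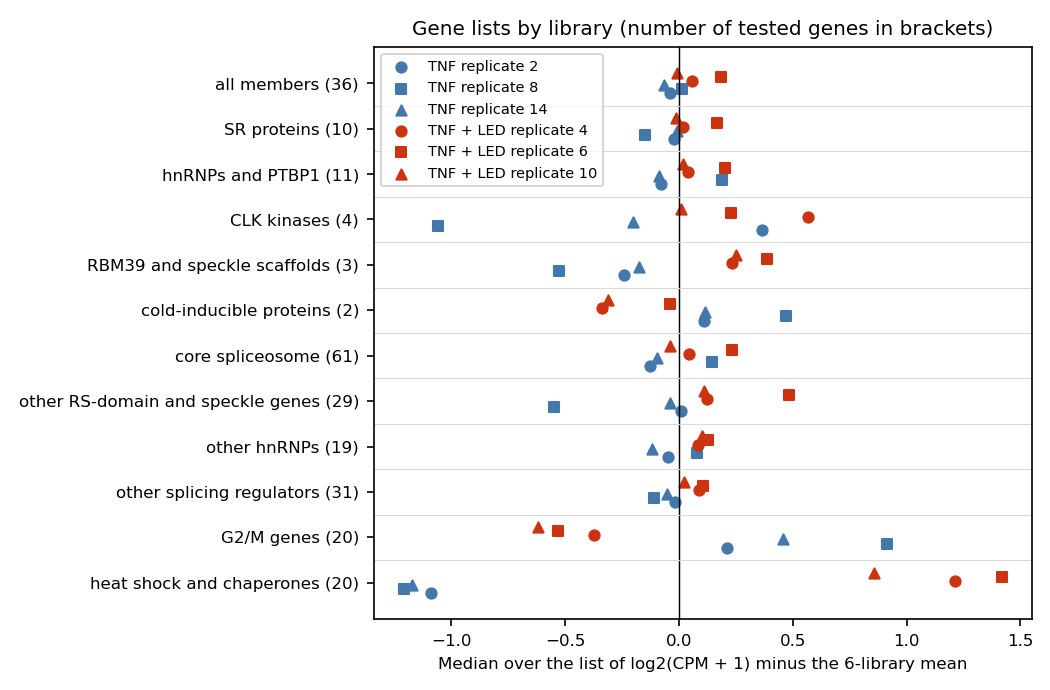
Median over each gene list of log2(CPM + 1) minus the 6-library mean (x axis) in every library, with TNF in blue, TNF plus LED in red and symbols for replicates. All lists were chosen with earlier results of these data known. The heat shock, G2/M, RBM39 and speckle scaffold, and cold-inducible lists are apart by group. Also apart are the other RS-domain and speckle genes, the other splicing regulators and, by a very small gap (0.080 to 0.082), the other hnRNPs. The medians over all members lie between -0.06 and 0.19 and overlap. Those of the SR proteins, the hnRNPs with PTBP1, the CLK kinases and the core spliceosome overlap too. TNF replicate 8 is at -1.06 for the CLK kinases and -0.55 for the other RS-domain and speckle genes.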

How the data were processed

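The authors deposited estimated counts per gene symbol, written as whole numbers, for 6 libraries of total RNA depleted of ribosomal RNA, per the labels' protocols. Tools listed, without roles, in the submitters' processing notes are HISAT2, StringTie, bcl2fastq 2.0, limma and DESeq2. The build listed is mm10, of mouse, for human samples. The human build and strand setting are not given in the sources used here. Of values from 1 to 7, 41.8% equalled 4, so a fragment appeared to be worth about 4 units, and precision is that of the counts divided by about 4. Genes were filtered with filterByExpr, scaled by TMM and tested with edgeR 4.0.16's quasi-likelihood test (two-sided; R 4.3.3), with robust dispersions, no covariate and Benjamini-Hochberg adjustment over 13794 genes (threshold 0.05). A standard error is the log2 fold change divided by the square root of F, and 95% intervals use the fit's degrees of freedom. Replicate numbers were not shared between groups. Alternatives were 2 other scalings, no filter, DESeq2 1.42.0, limma-voom (limma 3.58.1), counts divided by 4, scaling without heat shock genes, each library left out and, added later, both libraries that stood apart left out. The test was tried on data simulated with the dispersions of this fit, and no result here rests on that trial. GENCODE release 29 gave lengths and exon overlaps: 19 members share exonic bases with another gene (9 with one in the table) and 16 have named pseudogenes, so counts of these are uncertain. The members and lists were chosen with earlier results of these data known. Members that passed, or else the member with the lowest p in each role, are given in full. From each other list up to 4 called genes of lowest p are given, or the 1 to 2 of lowest p where none was called. The heat shock and G2/M lists are exceptions, as none of their genes is given with its level. Further genes were named with their values in view. Whether replicates were separate cultures is not in the labels. P-values therefore reflect the spread among these 6 libraries alone, possibly technical. In bulk RNA, fewer cells of a kind and less RNA per cell cannot be told apart.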

Additional observations from a re-analysis of the deposited data

How the results depend on the processing

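Over 14 alternatives for each of 36 members, 472 of 504 log2 fold changes kept their direction and side of the threshold, 12 passed it and 20 turned in sign. The members called numbered 4 higher and 1 lower with DESeq2 and 4 higher and 3 lower without both libraries that stood apart, and 0 in each of the other 12 alternatives. DESeq2 called 1753 genes in all, that 2 against 2 fit 1669 and the single-library omissions 80 to 737, against 713. The members' median stayed between 0.07 and 0.16. All 20 changes of sign were in values with adjusted p above 0.05: with both libraries left out SRSF9 was at 0.080, SRSF10 at -0.11, HNRNPA2B1 at -0.034 and HNRNPM at 0.093, and in single-library omissions the log2 fold changes ranged as follows: SRSF5 -0.016 to 0.20, SRSF9 -0.14 to 0.12, SRSF10 -0.047 to 0.30, TRA2B -0.10 to 0.34, HNRNPA1 -0.22 to 0.047, HNRNPA2B1 -0.0061 to 0.25, HNRNPC -0.30 to 0.074, HNRNPF -0.32 to 0.25, HNRNPK -0.0098 to 0.13, HNRNPM -0.12 to 0.085, PTBP1 -0.045 to 0.22. The cause was not tested. The lowest level of a member was 2.36 CPM, for CLK4 in TNF replicate 8, and the part of depth in its spread was not tested. No paired analysis was possible because the groups share no replicate number.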
